A study of Mus musculus with 24 samples.

Results

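Cryab and 9 genes of the heat shock chaperone network were followed through 24 RNA-seq libraries of sorted mouse astrocytes. The members were the gene rows Cryab, Hspb1, Hspb8, Hspa1a, Hspa1b, Hspa8, Hsp90aa1, Dnajb1, Hsph1 and Bag3, which are 10 of the 24421 gene names in each table. They were chosen by name, with earlier results of these data known. All 10 were among the 12673 genes that passed the filter on low values. The cells came from the brains of C57BL6 mice aged 20 weeks, by fluorescence-activated sorting for GFP, and 4 regions were taken: cortex, hippocampus, olfactory bulb and brainstem. The control genotype was NFIAfl/fl; Aldh1l1-GFP. The genotype labelled knockout was NFIAfl/fl; Aldh1l1-CreER; Aldh1l1-GFP. Both genotypes therefore carried the floxed Nfia alleles and the Aldh1l1-GFP reporter, and the label differed by Aldh1l1-CreER, a tamoxifen-dependent recombinase driven from an astrocyte promoter, whose induction the labels do not describe. The study asked how loss of NFIA, a transcription factor of astrocytes, altered these cells in each region. Each of the 8 groups had 3 libraries. The labels do not say whether libraries of 1 group came from separate mice, so the p-values measure the spread between libraries, part of which may be technical.

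Heat shock proteins are chaperones that hold, refold or hand over damaged proteins. Small heat shock proteins such as Cryab, Hspb1 and Hspb8 bind unfolding clients without using ATP. Hsp70 proteins then bind and release those clients in ATP-driven cycles, with J-domain proteins such as Dnajb1 loading clients and nucleotide exchange factors such as Hsph1 and Bag3 releasing them. Hsp90 proteins complete the folding of kinases, receptors and other signalling proteins. Heat shock factor 1 induces many of these genes under stress, whereas Hspa8 is the constitutive Hsp70 of most cells. In brain, Cryab is known from oligodendrocytes and reactive astrocytes.

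Depth ranged from 1090777 recovered reads (brainstem library labelled knockout 3) to 24297573, and this limits the precision of the rarer members Hspa1a, Hspa1b, Hspb8 and Hspb1, each with 2 to 5 reads in its lowest library. All 12 astrocyte markers were detected in all 24 libraries, with a summed level of 113803 to 661341, and genes that mark other cell types were read as well. Choroid plexus markers summed to 107878 to 223842 in hippocampal controls and 3582 to 9411 in hippocampal libraries labelled knockout, and to 77890 to 372902 and 8371 to 139663 in brainstem. Nfia itself was read at a higher level in all 12 libraries labelled knockout than in any control of its region, 1.64-fold to 2.09-fold in mean, so the genotype is written throughout as a label. This is a count over the whole gene, which does not show whether the floxed part was present. The ribosomal RNA gene Rn45s took 13.5% to 25.6% of reads in cortex and brainstem libraries, and 20.8% in olfactory bulb library labelled knockout 3, against at most 3.33% in the others. In bulk samples, fewer cells of a type and less RNA per cell cannot be told apart.

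Upstream sequences are shown for 4 members, because the stress-inducible pair Hspa1a and Hspa1b and the small heat shock genes Hspb1 and Hspb8 contrast in what lies before their start sites. Each is the 250 bases before the annotated start, 5′ to 3′ on the gene's strand, from RefSeq on GRCm38.p6: chr17:34972157-34972406 and chr17:34959239-34959488 on the minus strand, chr5:135887669-135887918 on the plus strand and chr5:116422865-116423114 on the minus strand. Capitals mark matches to GAANNTTC, a form of the heat shock element, and to TGGCNNNNNGCCA, the nuclear factor I palindrome.
Hspa1a: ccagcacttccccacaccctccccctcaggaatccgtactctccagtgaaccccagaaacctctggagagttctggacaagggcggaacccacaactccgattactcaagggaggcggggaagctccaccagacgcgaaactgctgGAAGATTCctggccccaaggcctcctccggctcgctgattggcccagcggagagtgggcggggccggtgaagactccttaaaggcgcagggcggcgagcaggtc
Hspa1b: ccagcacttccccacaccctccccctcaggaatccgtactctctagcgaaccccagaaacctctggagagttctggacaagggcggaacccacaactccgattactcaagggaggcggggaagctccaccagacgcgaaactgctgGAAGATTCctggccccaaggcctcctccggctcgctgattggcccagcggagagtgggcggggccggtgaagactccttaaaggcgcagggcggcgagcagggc
Hspb1: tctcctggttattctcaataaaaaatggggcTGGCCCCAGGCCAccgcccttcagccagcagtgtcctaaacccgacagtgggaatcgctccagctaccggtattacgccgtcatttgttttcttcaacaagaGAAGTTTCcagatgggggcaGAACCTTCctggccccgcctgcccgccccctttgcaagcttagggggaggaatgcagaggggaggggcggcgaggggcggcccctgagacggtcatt
Hspb8: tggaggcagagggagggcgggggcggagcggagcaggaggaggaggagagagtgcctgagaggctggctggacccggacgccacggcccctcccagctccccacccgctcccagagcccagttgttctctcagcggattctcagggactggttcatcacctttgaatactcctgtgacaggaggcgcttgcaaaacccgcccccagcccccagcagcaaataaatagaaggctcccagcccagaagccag

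The Hspa1a and Hspa1b windows differed at 3 of 250 bases and carried GAANNTTC at the same place, with its first base 104 bases before the start. Hspb1 had GAANNTTC at 117 and 97 bases before the start and the nuclear factor I palindrome at 219. The inverted form TTCNNGAA was searched as well, and each of these motifs reads the same on both strands. It occurred in the Hsph1 window. Hspb8, Bag3 and Dnajb1 had none of the 3 motifs in these windows. Over 32851 mouse promoter windows of the same length, 6.69% held GAANNTTC, 7.17% held TTCNNGAA, 12.8% held either, and 0.703% held the nuclear factor I palindrome. RefSeq windows were matched for 7 of the 10 members, and Cryab, Hspa8 and Hsp90aa1 had no entry. A match describes letters only and was not tested as a binding site.

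Levels below are normalised read counts, with all 24 libraries put on 1 common scale so that regions can be compared. Tests of the knockout label were run on the deposited values, which differ from this scale by close to 1 constant per region. Levels of different genes are compared only after division by exon length, taken as the union of all annotated exons of a gene. For Hsph1 this union was 7266 bases, where its longest protein-coding transcript had 3802. The order of genes with close values therefore depends on the length used. Hspa8 had the highest median level per kilobase over the 12 control libraries at 1390, followed by Hsp90aa1 at 897 and Cryab at 682. Hspb8 (87.9), Bag3 (77.9), Hsph1 (56.6), Dnajb1 (41.6) and Hspb1 (29.4) formed a middle range. Hspa1a (8.17) and Hspa1b (7.57) were lowest. On this per-length scale Cryab was the most abundant small heat shock gene among the members, below Hspa8 and Hsp90aa1 and above the rest.

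Cryab (alpha-B crystallin, chromosome 9, 50751325 to 50756636, plus strand of mm10) was lower in the libraries labelled knockout of hippocampus and cortex. In hippocampus the controls read 1089, 1116 and 791 and the libraries labelled knockout 407, 433 and 239. In cortex they read 960, 1057 and 921 against 469, 351 and 286. The groups did not overlap in either region, and the levels fell 2.78-fold in hippocampus (998 ± 181 to 360 ± 105, SD, n = 3) and 2.66-fold in cortex (979 ± 70.2 to 369 ± 92.9, SD, n = 3). The log2 fold change was -1.49 (SE 0.23, limma adjusted p = 0.000560) in hippocampus and -1.42 (SE 0.23, limma adjusted p = 0.00173) in cortex. Both passed the threshold of 0.05 under every alternative and with each library left out, at adjusted p of at most 0.0103 in hippocampus and 0.0317 in cortex.

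In olfactory bulb, Cryab read 938, 744 and 609 in controls and 440, 307 and 317 in libraries labelled knockout. These groups did not overlap either, and the means were 764 ± 165 and 355 ± 74.1 (SD, n = 3). The log2 fold change of -1.09 (SE 0.23) gave a limma adjusted p of 0.0547, just outside the threshold. It passed under 6 of 12 alternatives, with adjusted p from 0.00428 (DESeq2) to 0.158 (no filter on low values), and with none of the 6 bulb libraries left out (0.0532 to 0.346). In brainstem, controls read 1432, 1277 and 1532 and libraries labelled knockout 898, 1642 and 1407, with overlapping groups. The log2 fold change there was -0.15 (SE 0.23, 95% interval -0.62 to 0.33, limma adjusted p = 0.826). Averaged over the 4 regions, Cryab fell by 1.04 on the log2 scale (SE 0.12, limma adjusted p = 1.64e-06).

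**Figure D1:**
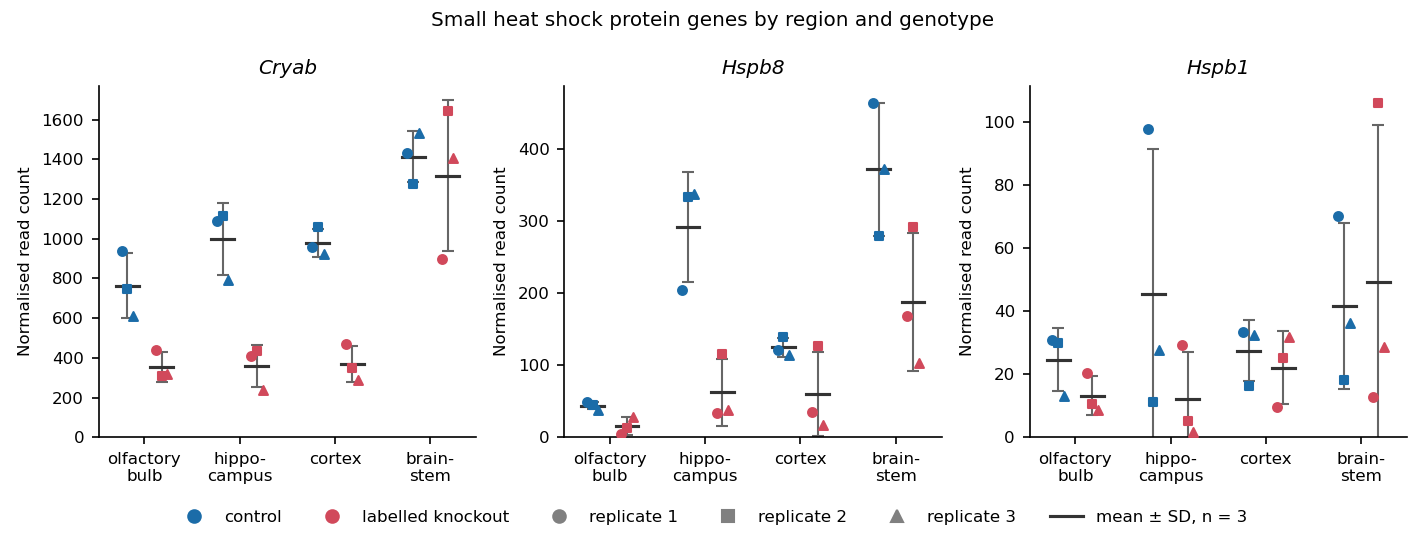
Normalised read counts (vertical axes, each from 0) of Cryab, Hspb8 and Hspb1 in each library, by region and genotype; points are libraries, horizontal lines means and bars SD (n = 3, drawn down to 0 at most). Cryab separates the genotypes in olfactory bulb, hippocampus and cortex but not in brainstem, where all libraries lie between 898 and 1642.

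Whether the effect on Cryab differed among regions was tested directly. The F test over the regions gave an unadjusted p of 0.00107 in limma. Its limma adjusted p was 0.216, so a difference was not called, as it was for 0.0552% of all genes. The adjusted p ran from 0.0342 to 0.423 over the alternatives, and DESeq2 was the 1 fit under the threshold. A narrower contrast, chosen after the data were seen, set the brainstem effect against the mean of the other 3. It gave 1.19 on the log2 scale (SE 0.27, 95% interval 0.64 to 1.73) and a limma adjusted p of 0.0594, where 0.166% of all genes passed. With single libraries left out, that adjusted p ran from 0.0203 to 0.182 and passed without hippocampal control 3, cortical library labelled knockout 1, brainstem control 2 or brainstem library labelled knockout 1. The regional difference in the Cryab effect therefore did not pass the threshold in the limma fit of all 24 libraries.

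Among controls, Cryab was ordered brainstem (1414 ± 129), hippocampus (998 ± 181), cortex (979 ± 70.2) and olfactory bulb (764 ± 165, SD, n = 3). Only brainstem stood clear of its neighbour, and the ranges of the other 3 regions overlapped in order. In the libraries labelled knockout, brainstem (1315 ± 380) lay above cortex, hippocampus and olfactory bulb, whose means lay between 355 and 369. The difference among regions passed the F test in controls (limma adjusted p = 0.0295) and in the libraries labelled knockout (limma adjusted p = 2.83e-07). The control call was lost without olfactory bulb control 2 or 3 or brainstem control 1 or 3. It was also lost without the filter on low values (limma adjusted p = 0.0735).

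Cryab levels followed the summed level of 11 oligodendrocyte markers (among them Mbp and Mog), with Pearson r of 0.709 over 24 libraries, 0.938 over the 12 controls and 0.847 over the 12 libraries labelled knockout. Those points share region, library and depth. In hippocampus the marker sum was 16081 to 34833 in controls and 11441 to 22573 in libraries labelled knockout, and in cortex 15649 to 25059 and 11872 to 27185. In both regions the sums overlapped between genotypes. Their means in controls and libraries labelled knockout were 27592 and 17718 in hippocampus and 19478 and 17951 in cortex. Brainstem sums were 43622 to 76794 and 39370 to 93229. Of the 11 markers 10 were tested, and 0 were called in hippocampus, where their median log2 fold change was -0.64, and 1 (Cnp) was called on average. Cryab also correlated with the sum of 10 choroid plexus markers, at r = 0.698 over 24 libraries, 0.656 over controls and 0.773 over libraries labelled knockout. In hippocampus that sum was 107878 to 223842 in controls and 3582 to 9411 in libraries labelled knockout, with no overlap. It overlapped in cortex (3456 to 95545 and 1114 to 12216) and in olfactory bulb (2430 to 2950 and 2485 to 2989). The sum of 8 ependymal markers was likewise lower without overlap in hippocampus (229 to 327 and 41.1 to 49.5) and overlapped in the other regions. The part of these cell types in the Cryab difference was not tested.

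**Figure D2:**
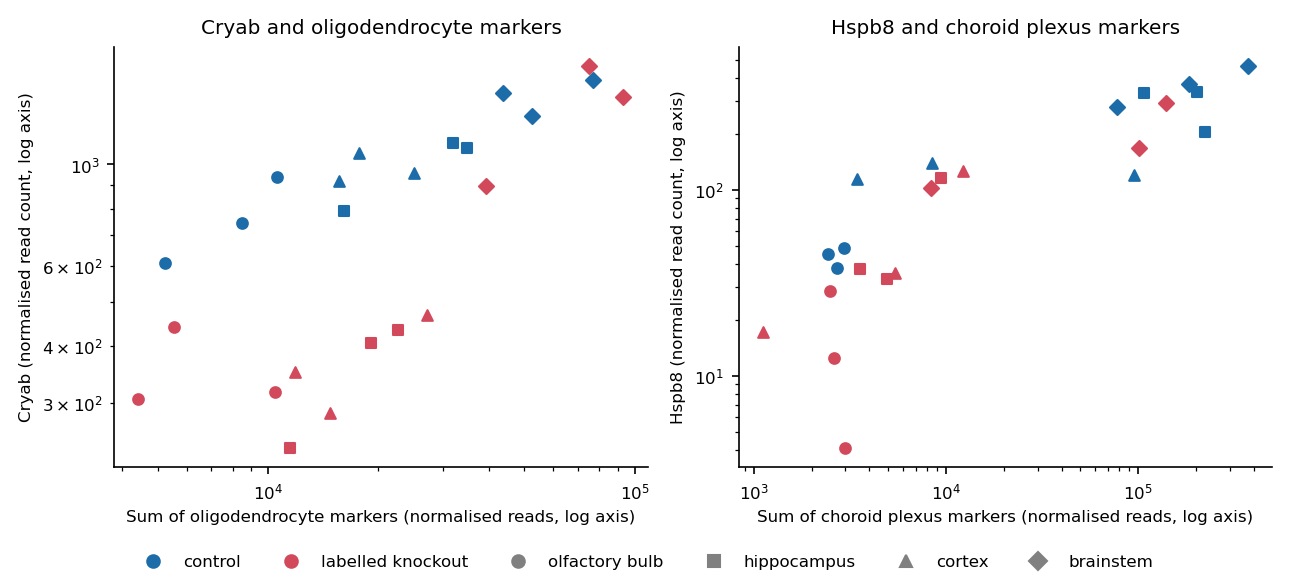
Cryab against the sum of 11 oligodendrocyte markers (left) and Hspb8 against the sum of 10 choroid plexus markers (right), in normalised reads on log axes; each point is 1 library, coloured by genotype and shaped by region. Hippocampal and cortical libraries hold 239 to 469 of Cryab where labelled knockout and 791 to 1116 where control. The oligodendrocyte sums overlap between genotypes in both regions, and the choroid plexus sums do not overlap in hippocampus. The part of these cell types was not tested.

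The annotation places a second gene on Cryab. Hspb2, a small heat shock gene on the opposite strand, shares 252 exon bases with it, 17.0% of the Cryab exons. Hspb2 was at 0 reads in 18 libraries and reached 2.14 at most, so its listed level was far below that of Cryab. Whether the counting used strand is not given in the sources used here. No 50-base stretch of the Cryab transcript recurred in another annotated transcript.

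Hspb8 (chromosome 5, 116408491 to 116422864, minus strand), the small heat shock protein that works with Bag3 in clearing misfolded proteins, also fell in hippocampus. Its controls read 204, 334 and 338 and the libraries labelled knockout 33.0, 116 and 37.6. The groups did not overlap, and the mean dropped 4.71-fold from 292 ± 76.0 to 62.1 ± 46.4 (SD, n = 3). The log2 fold change was -2.32 (SE 0.53, limma adjusted p = 0.0171). The call was lost without hippocampal control 2 or 3 or library labelled knockout 1 or 3, at adjusted p of 0.0572 to 0.109, with fold changes of -2.02 to -2.21.

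In the other regions Hspb8 did not pass. Olfactory bulb read 48.5, 45.1 and 38.2 in controls and 4.07, 12.5 and 28.7 in libraries labelled knockout, without overlap (log2 fold change -1.48, limma adjusted p = 0.702). Cortex read 121, 139 and 114 against 35.6, 126 and 17.2, and brainstem 464, 279 and 373 against 168, 292 and 103, with overlap in both. The log2 fold changes were -1.36 (limma adjusted p = 0.637) and -1.06 (limma adjusted p = 0.342). Averaged over regions Hspb8 fell by 1.56 on the log2 scale (SE 0.26, limma adjusted p = 0.000763), and a difference of the effect among regions was not detected (limma adjusted p = 0.917).

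Hspb8 was the member with the clearest regional pattern in controls. It was lowest in olfactory bulb (43.9 ± 5.23), then cortex (125 ± 12.4), hippocampus (292 ± 76.0) and brainstem (372 ± 92.4, SD, n = 3), and only hippocampus and brainstem overlapped. Olfactory bulb lay 2.30 below the mean of the other 3 regions on the log2 scale (SE 0.43, limma adjusted p = 0.000591), where 8.58% of genes passed that test. The choroid plexus marker sum correlated with Hspb8 at r = 0.871 over 24 libraries, and 7 of the 10 markers were called lower in hippocampal libraries labelled knockout, where Hspb8 fell. In olfactory bulb the sum was 2430 to 2989 in both genotypes, with Folr1, Tmem72 and Slc4a5 at 0 in all controls and Folr1 and Prlr at 0 in all libraries labelled knockout. Hspb8 also correlated with the oligodendrocyte sum, at r = 0.743 over 24 libraries and 0.862 over controls. Of the 6 ependymal markers tested, 3 (Rsph1, Foxj1 and Dnah11) were called lower in hippocampal libraries labelled knockout, with a median log2 fold change of -2.11 over the 6. The part of these cell types in the Hspb8 difference was not tested.

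Hspb1 (Hsp25, chromosome 5, 135887919 to 135889563, plus strand), a small heat shock protein that stabilises actin, was low and uneven, at 1.79 to 106 over the 24 libraries. Hippocampal controls read 97.8, 11.1 and 27.8 and libraries labelled knockout 29.2, 5.00 and 1.79. Brainstem controls read 70.2, 18.2 and 36.4 and libraries labelled knockout 12.8, 106 and 28.6. A single library set the upper end of each of these groups, and control and labelled knockout ranges overlapped in all 4 regions. In olfactory bulb the means were 24.6 ± 9.95 and 13.2 ± 6.28, and in cortex 27.5 ± 9.62 and 22.1 ± 11.5 (SD, n = 3). Its hippocampal effect, -1.52 on the log2 scale (SE 0.67), missed the threshold (limma adjusted p = 0.299). Of its 50-base stretches, 51.65% recur in the pseudogene Hsp25-ps1, so that its reads are uncertain.

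Of 7 other small heat shock genes listed, only Hspb6, which encodes Hsp20, was above the filter. It fell in hippocampus from 208 ± 52.3 to 82.8 ± 16.3 (SD, n = 3; log2 fold change -1.26, SE 0.35, limma adjusted p = 0.0487), and on average by 0.84 (SE 0.18, limma adjusted p = 0.00372). The hippocampal call was lost in 9 of 18 other fits, among them those without any hippocampal library but control 2 (limma adjusted p 0.0729 to 0.245). Like Hspb8 it was low in control olfactory bulb, by 2.32 on the log2 scale (SE 0.29, limma adjusted p = 8.03e-07).

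Hspa1a (chromosome 17, 34969190 to 34972156, minus strand) and Hspa1b (chromosome 17, 34956436 to 34959238, minus strand) encode the stress-inducible Hsp70. The genes lie 9951 bases apart on the same strand. They share 58.8% and 62.3% of their 50-base stretches with each other, so reads may be split between them, and both are uncertain as single genes. Hspa1a read 248, 4.05 and 45.0 in brainstem controls and 12.8, 22.4 and 57.2 in brainstem libraries labelled knockout. Hspa1b read 176, 6.07 and 17.1 against 16.7, 33.6 and 22.9. Brainstem control 1 was thus far above brainstem control 2 in both, with 233 recovered reads against 2 for Hspa1a and 165 against 3 for Hspa1b. The libraries labelled knockout lay inside that span.

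Hippocampus and cortex held low levels of both genes. Hspa1a read 66.0, 13.9 and 9.64 in hippocampal controls and 12.1, 11.1 and 20.9 in libraries labelled knockout. In cortex its libraries ranged from 21.7 to 32.8 in controls and from 11.5 to 41.8 where labelled knockout. Hspa1b had means of 17.9 ± 10.1 and 18.5 ± 1.59 in hippocampus and of 18.6 ± 11.5 and 24.4 ± 16.1 in cortex (SD, n = 3). The genotypes overlapped for both genes in both regions, with log2 fold changes between -0.49 and 0.30.

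In olfactory bulb, Hspa1a read 83.8, 22.5 and 9.28 in controls and 30.5, 5.54 and 12.5 in libraries labelled knockout, with overlap. Hspa1b read 62.8, 40.2 and 17.5 in controls and 9.15, 11.8 and 15.0, without overlap. Its log2 fold change was -1.29 (SE 0.67, 95% interval -2.67 to 0.10, limma adjusted p = 1.00), outside the threshold. Summing both genes gave 147, 62.8 and 26.7 against 39.7, 17.3 and 27.5, which overlapped. Neither gene nor their sum was called in any comparison of the knockout label or of regions in the fit of all libraries. Without brainstem control 2, Hspa1a was called higher in control brainstem by 1.89 on the log2 scale (limma adjusted p = 0.0428). The intervals of the single-region effects reached from -2.63 to 1.79 for Hspa1a, so that changes of several fold were not detectable at this depth and spread.

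The summed level of 30 immediate early genes that respond to cell dissociation (Fos, Jun, Egr1 and others) correlated with Hspa1a at r = 0.71 over 24 libraries. That sum was 7650 in brainstem control 1 and 1676 in brainstem control 2, the high and low libraries for Hspa1a. It was higher still in brainstem library labelled knockout 3 (15222) and hippocampal control 1 (10054), where Hspa1a read 57.2 and 66.0. Of these genes 28 were tested. Arc, an activity-induced gene, was the 1 called for the knockout label, lower on average by 1.17 (SE 0.21, limma adjusted p = 0.000972). The part of this response in the chaperone levels was not tested.

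**Figure D3:**
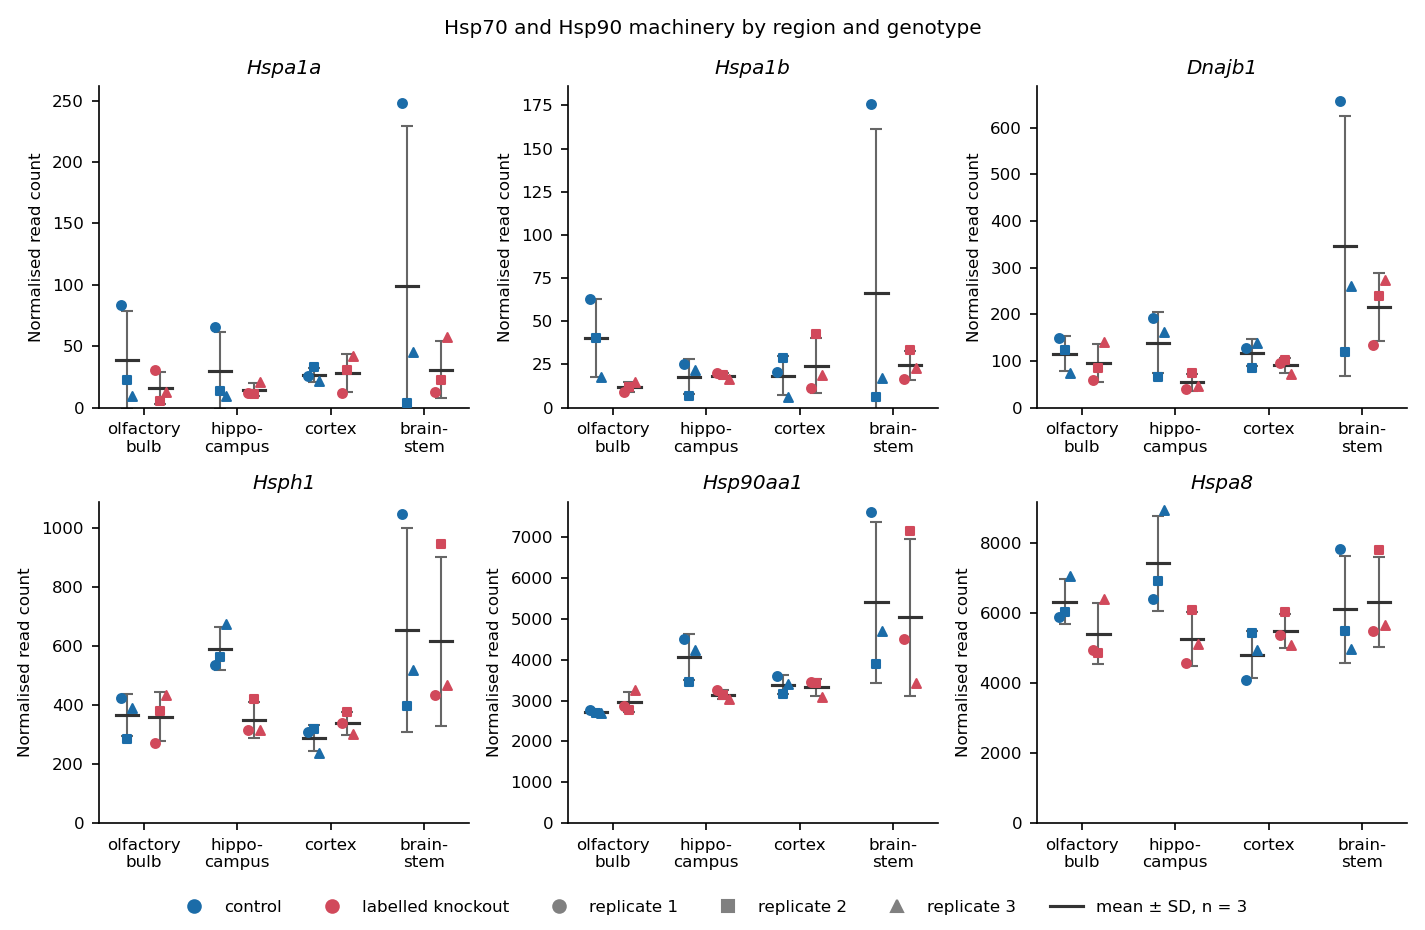
Normalised read counts (vertical axes, each from 0) of the Hsp70 genes, their partners and Hsp90aa1 in each library, by region and genotype; points are libraries, lines means and bars SD (n = 3, drawn down to 0 at most). Brainstem control 1 is the highest library for Hspa1a (248), Hspa1b (176), Dnajb1 (658), Hsph1 (1050) and Hsp90aa1 (7620). It also has the lowest astrocyte marker sum (113803) and the highest choroid plexus marker sum (372902) of the series.

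Hspa8 (Hsc70, chromosome 9, 40800984 to 40810087, plus strand), the constitutive Hsp70, was even across the series, with a 2.19-fold range over 24 libraries from 4077 to 8936. Hippocampal controls read 6394, 6910 and 8936 and libraries labelled knockout 4567, 6095 and 5102, without overlap. The mean was 7413 ± 1343 against 5255 ± 775 (SD, n = 3), a log2 fold change of -0.49 (SE 0.18, limma adjusted p = 0.177) that did not pass. The groups overlapped in the other regions. The control and labelled knockout means were 6324 ± 640 and 5403 ± 874 in olfactory bulb (log2 fold change -0.23), 4807 ± 677 and 5492 ± 485 in cortex (0.20), and 6100 ± 1524 and 6306 ± 1285 in brainstem (0.06, SD, n = 3), with limma adjusted p of 0.929 or more. No control region was separated from its neighbour in the order hippocampus, olfactory bulb, brainstem and cortex. Hspa8 shares 73.2% of its 50-base stretches with 11 other genes, mostly processed copies, and is uncertain to that extent.

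Dnajb1 (Hsp40, chromosome 8, 83608193 to 83612653, plus strand), the J-domain partner that loads clients onto inducible Hsp70, varied 16.1-fold over the libraries, from 40.9 to 658. Hippocampal controls read 191, 64.9 and 162 and libraries labelled knockout 40.9, 75.0 and 47.2. These overlapped through control 2, and the log2 fold change was -1.19 (SE 0.47, limma adjusted p = 0.223). The mean effect of the 4 regions, -0.55 (SE 0.23, limma adjusted p = 0.190), was called in DESeq2 (adjusted p = 0.0449, the lowest of alternatives that reached 0.291) and without brainstem control 2 (limma adjusted p = 0.0270). In olfactory bulb the means were 115 ± 37.9 and 95.6 ± 41.4, in cortex 117 ± 28.9 and 90.4 ± 15.7, and in brainstem 346 ± 279 and 216 ± 73.5 (SD, n = 3), all with overlap.

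The F test for Dnajb1 among control regions did not pass (limma adjusted p = 0.122), and the brainstem control range overlapped that of hippocampus. In controls Dnajb1 was higher in brainstem than in the mean of the other regions by 1.196 on the log2 scale (SE 0.38, limma adjusted p = 0.0318), and was 1 of the 2 members called there, against 9.81% of all genes. The call was lost without olfactory bulb control 3, cortical control 2 or brainstem control 3 (adjusted p 0.0540 to 0.0867). It was also lost with control libraries fitted alone (limma adjusted p = 0.0898) and without the filter on low values (limma adjusted p = 0.0555). Without brainstem control 1, which read 658 where the others read 119 and 261, the brainstem value of Dnajb1 became 0.57 (limma adjusted p = 0.381). The same omission took the brainstem value of Hspb8 from 1.60 (limma adjusted p = 0.0115) to 1.42 (limma adjusted p = 0.0880). Brainstem control 1 had the lowest astrocyte marker sum of the series (113803). Its choroid plexus (372902) and ependymal (914) marker sums were the highest. The part of these cell types in its chaperone levels was not tested.

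Hsph1 (Hsp110, chromosome 5, 149614287 to 149636376, minus strand), a nucleotide exchange factor of Hsp70, read 537, 562 and 674 in hippocampal controls and 315, 422 and 317 in hippocampal libraries labelled knockout. The groups did not overlap and the means were 591 ± 73.1 and 351 ± 61.0 (SD, n = 3). Its effect of -0.75 on the log2 scale (SE 0.28) was outside the threshold in the fit of all libraries (limma adjusted p = 0.201), and inside when hippocampal libraries were fitted alone (limma adjusted p = 0.0347, where the other alternatives reached 0.327). In cortex the values were 339 ± 38.6 in libraries labelled knockout and 289 ± 44.2 in controls (SD, n = 3; log2 fold change 0.24, limma adjusted p = 1.00). Olfactory bulb (367 ± 72.2 and 361 ± 83.1) and brainstem (656 ± 347 and 618 ± 287) overlapped between genotypes, with log2 fold changes of -0.03 and -0.06. Control cortex had the lowest mean of Hsph1, overlapping olfactory bulb, and the difference among control regions passed the F test (limma adjusted p = 0.0110). Hsph1 correlated with the choroid plexus sum at r = 0.728 over 24 libraries. That sum was lower without overlap in hippocampal libraries labelled knockout, and the part of those cells in the Hsph1 difference was not tested.

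Bag3 (chromosome 7, 128523616 to 128546981, plus strand), which couples Hsp70 and Hspb8 to autophagy, was not called for the knockout label. In hippocampus it read 203, 122 and 196 in controls and 207, 184 and 174 in libraries labelled knockout, with a log2 fold change of 0.14 (SE 0.24, limma adjusted p = 0.870). In olfactory bulb (279 ± 24.4 against 205 ± 40.2) and cortex (166 ± 13.1 against 132 ± 7.47, SD, n = 3) the libraries labelled knockout lay below all controls, at log2 fold changes of -0.45 and -0.31 that did not pass (limma adjusted p = 1.00 in both). In brainstem the means were 246 ± 87.7 and 198 ± 47.3 (SD, n = 3), with overlap. Bag3 was the 1 member with its highest control mean in olfactory bulb.

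Hsp90aa1 (chromosome 12, 110690605 to 110702728, minus strand), the inducible cytosolic Hsp90, passed the threshold for the knockout label in 0 of 4 regions. In olfactory bulb all libraries labelled knockout lay above all controls (2960 ± 253 against 2721 ± 44.8), and in hippocampus all lay below all controls (3138 ± 108 against 4067 ± 554, SD, n = 3). The log2 fold changes were 0.12 (limma adjusted p = 1.00) and -0.36 (limma adjusted p = 0.452), and a difference among regions was not detected (limma adjusted p = 0.919). Among controls it rose from olfactory bulb to cortex (3389 ± 226), hippocampus and brainstem (5400 ± 1964, SD, n = 3), which passed the F test (limma adjusted p = 0.00571), and of neighbouring regions in that order only olfactory bulb and cortex did not overlap. The genotypes overlapped in cortex (3325 ± 208 in libraries labelled knockout) and brainstem (5032 ± 1919). It correlated with the choroid plexus sum at r = 0.815 over 24 libraries, and the part of those cells was not tested. Of its 50-base stretches, 58.5% recur in 4 other genes, which makes its reads uncertain to that extent.

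**Figure D4:**
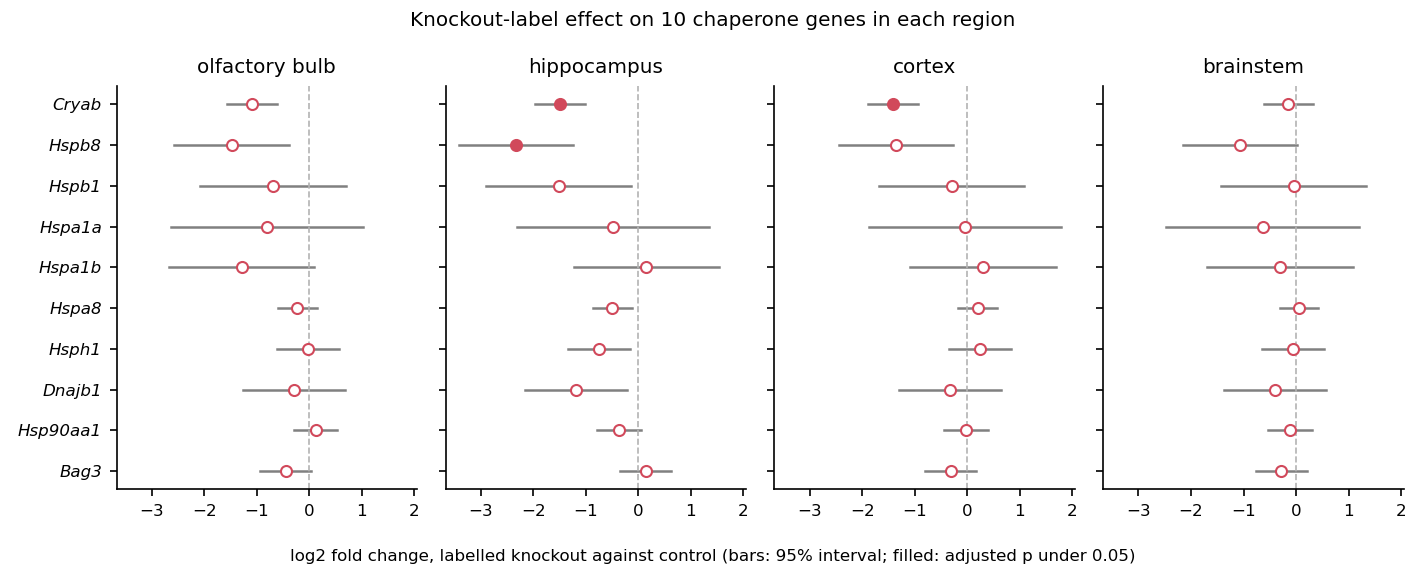
Log2 fold change of each member between libraries labelled knockout and controls in each region (horizontal axis), with 95% intervals as bars and filled points where the adjusted p was under 0.05. Cryab and Hspb8 in hippocampus and Cryab in cortex are filled, and all 10 brainstem points are open.

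By region, 2 of 10 members were called in hippocampus (Cryab and Hspb8, both lower), against 2.51% of all genes. In cortex 1 was called (Cryab), against 0.324%. In olfactory bulb 0 were called in limma, against 0.0868% of all genes, and DESeq2 called 1 (Cryab). In brainstem 0 were called, against 0.773%, in limma and in DESeq2. Averaged over regions 2 were called, against 5.88%. An unadjusted p under 0.05 was found for 6 members in hippocampus and 2 each in olfactory bulb and cortex, against 13.6%, 5.20% and 5.70% of all genes. In brainstem it was found for 0, against 15.2%.

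The log2 fold change was under 0 for 9, 8, 7 and 9 of 10 members in olfactory bulb, hippocampus, cortex and brainstem, where 49.8% to 51.2% of all genes were under 0. The median member was at -0.57 in olfactory bulb and -0.62 in hippocampus, and at -0.17 and -0.21 in cortex and brainstem, where the median gene lay within 0.01 of 0 in each. The libraries labelled knockout lay below all controls for 4, 5, 2 and 0 members, against 6.86%, 10.4%, 7.21% and 5.65% of all genes, and above all controls for 1 (Hsp90aa1 in olfactory bulb), against 7.19%. Since the members vary together between libraries, these counts are not independent. The members were also chosen with earlier results of these data known.

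Among the control groups, in the fit of all 24 libraries, 5 members differed among regions by the F test (Hspb8, Hsp90aa1, Hsph1, Cryab and Bag3), against 23.5% of all genes. In the libraries labelled knockout 4 did (Cryab, Hspb8, Dnajb1 and Hsp90aa1), against 21.5%. Set against the mean of the other regions with a fold threshold of 1 on the log2 scale, 0 were called in hippocampus and 0 in cortex, where 1.73% and 3.49% of all genes were. Without the fold threshold, Hsph1 was called in cortex (-0.80, limma adjusted p = 0.0332), against 6.83% of all genes. Cryab (-0.56) and Hsp90aa1 (-0.60) then joined Hspb8 below the other regions in olfactory bulb, against 14.2%, and both joined Hspb8 and Dnajb1 above them in brainstem (0.65 and 0.63), against 17.6%. At an unadjusted p under 0.05, Hspa8, Hspb8 and Hsph1 were higher in control hippocampus (13.5% of all genes), and Hspa8, Bag3 and Hsph1 lower in control cortex (19.4%).

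Some of these regional calls changed with single libraries or with the test. Bag3 among controls was lost without any of 8 of the 12 control libraries, with adjusted p of 0.0560 to 0.129, the exceptions being hippocampal controls 1 and 3 and brainstem controls 1 and 2. Its call was also lost with control libraries fitted alone (limma adjusted p = 0.0978) and without the filter on low values (limma adjusted p = 0.0610). Dnajb1 was called among control regions without brainstem control 2 (0.00604), and with all libraries by edgeR, DESeq2 and voom (adjusted p 0.00228 to 0.0298). Hspa8 was called there without hippocampal control 1 or brainstem control 1 or 2 (0.0195 to 0.0431), and with all libraries by DESeq2 (0.0427) and voom (0.0300). Among the libraries labelled knockout, Dnajb1 was lost without numbers 1 or 3 of hippocampus or 2 or 3 of brainstem (0.0745 to 0.129). Hsp90aa1 there was lost without olfactory bulb 1 or 2, hippocampus 1, 2 or 3, cortex 2 or 3, or brainstem 1 or 2 (0.0510 to 0.413). With all libraries, Hsp90aa1 there was also lost by voom (adjusted p = 0.0584). Without the filter on low values, Dnajb1 (limma adjusted p = 0.0581) and Hsp90aa1 (limma adjusted p = 0.0843) were lost there. Hspb8 passed in both F tests with each library left out.

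After each library's value was set against its group mean, members still varied together. Over 24 libraries the deviations correlated above 0 in 40 of 45 pairs, with a median r of 0.402. Among Hspa1a, Hspa1b, Dnajb1, Hsph1 and Hsp90aa1 all 10 pairs lay between 0.347 and 0.788, with Hsp90aa1 and Hsph1 highest. Hspa8 correlated with Hsph1 at 0.754, and Hspa1a with Hspa1b at 0.747, a pair that can share reads. Cryab correlated with the other members at -0.145 to 0.402, highest with Hspb1 and lowest with Bag3. Brainstem control 1 and olfactory bulb control 1 were each the highest of their 3 controls for 9 of 10 members. These correlations share library, depth and scaling and are given as a description.

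**Figure D5:**
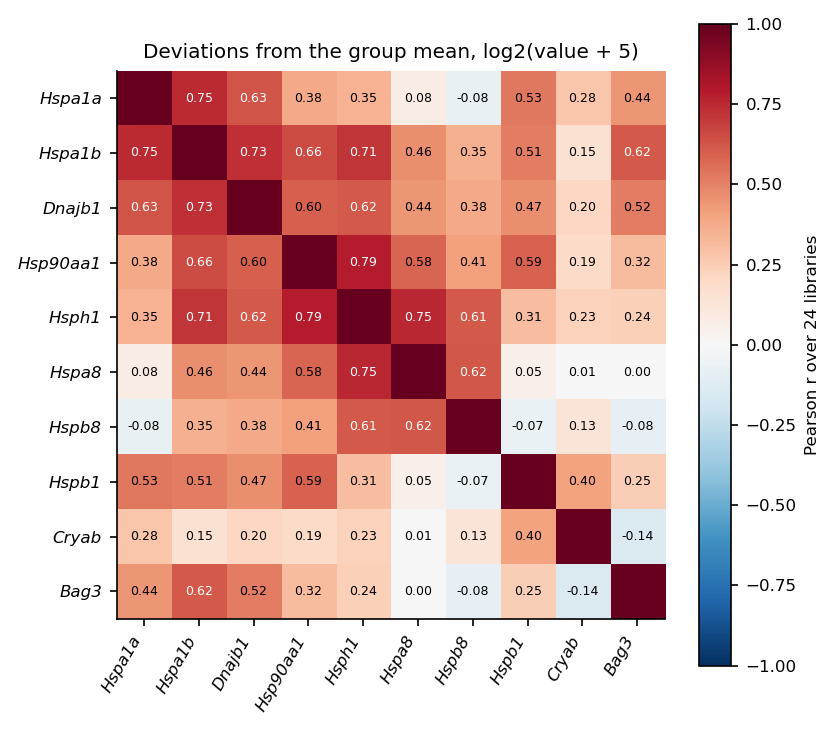
Pearson r between members over 24 libraries, computed on deviations of log2(value + 5) from the mean of each region and genotype; red is positive and blue negative. All 10 pairs among Hspa1a, Hspa1b, Dnajb1, Hsph1 and Hsp90aa1 are red (0.347 to 0.788), and Cryab reaches at most 0.402.

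Among other chaperone genes few were called for the knockout label. Hspa5 (BiP), the Hsp70 of the endoplasmic reticulum, fell in hippocampus from 1533 ± 306 to 781 ± 190 (SD, n = 3; log2 fold change -0.98, SE 0.24, limma adjusted p = 0.0274). It was the 1 called of 10 other Hsp70 and Hsp110 genes tested there, and the 1 called of 21 genes of the endoplasmic reticulum stress response. This call was lost without hippocampal control 1 or 3 or library labelled knockout 2 or 3 (adjusted p 0.105 to 0.144), without the filter on low values (0.0686) and with voom (0.0964). Hspa12a, a distant Hsp70 relative, fell by 0.69 on average (SE 0.16, limma adjusted p = 0.00937). Among control regions, Hspa2 was higher in hippocampus than in the mean of the others by 1.01 (limma adjusted p = 0.00286), and Hspb6 (1.08, limma adjusted p = 0.00797) and Hspa12a (1.01, limma adjusted p = 0.00723) were higher in brainstem. None of 3 other Hsp90 genes, 16 J-domain proteins, 18 cochaperones, 10 chaperonins, 8 partners of Bag3 in autophagy or 3 heat shock factors and regulators was called for the knockout label in any region or on average. Over the 4 regions, the median log2 fold changes of these lists ran from -0.12 (partners of Bag3) to 0.08 (heat shock factors and regulators), and the median of all genes was -0.01.

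The genes whose levels were most like Cryab over the 24 libraries, by Pearson r of log2 values, were Shroom3 (0.854), Extl1 (0.834), Pdzd2 (0.833) and Dab2 (0.833). Those most like Hspa1a were Plekhg2 (0.743), Ctgf (0.726), Dusp1 (0.721) and Atp10d (0.717), of which Dusp1 is one of the immediate early genes above. Hspa8 was most like Xbp1 (0.844), a transcription factor of the unfolded protein response, then Ube2z (0.754), Creld2 (0.694) and Mtf1 (0.694). Hsp90aa1 was most like Phactr2 (0.929), Fhad1 (0.918), Iqcg (0.905) and Top3b (0.904). As a description, no gene was on more than 1 of these 4 lists, which hold 4 genes each and leave out the members.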

How the data were processed

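RNA was prepared with the RNeasy Micro kit and 5 ng entered the Trio RNA-Seq kit (NuGEN), per the labels' protocols. The submitters' processing notes list FastQC, STAR 2.5.0a, DESeq2 1.20.0 and mm10 without roles, and the counting tool and annotation are not given in the sources used here. Each library had its own deposited table, whose unit is normalised signal. Of the values, 100% were a whole number of reads, within 0.01 read, over 1 factor per library, so reads were recovered. Cortical factors were those of the 6 cortical libraries alone, so cortical values lay at 0.788 to 0.794 of a scale common to all 24. Levels and regional tests used that joint scale, and tests of the label used the deposited values.

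Genes at 20 or more in at least 3 libraries were tested as log2(value + 5) with limma 3.58.1 under R 4.3.3. The model held the 8 group means, a trend of variance with level, robust moderation and 16 residual degrees of freedom. The added constant reduces fold changes of low genes. Benjamini-Hochberg adjustment covered all 12673 genes tested (12759 on the joint scale), and each test was two-sided. For 1 control region against the mean of the other 3, a call needed an absolute log2 fold change over 1 too. Intervals are 95% intervals of single genes. The scripts were tested on simulated data. Named were the members, up to 4 called genes per list by smallest p, and the 4 genes most like each of 4 members. Members and lists were chosen with earlier results of these data known. Alternatives included DESeq2 1.42.0 and edgeR 4.0.16 on recovered reads, and edgeR with TMM factors called 12, 342, 33 and 32 genes in olfactory bulb, hippocampus, cortex and brainstem, where limma called 11, 318, 41 and 98. Of the gene names, 23350 matched GENCODE vM21 symbols. The values of 1 oligodendrocyte marker gene are not reported here, and it was left out of the marker sum.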

Additional observations from a re-analysis of the deposited data

How the results depend on the processing

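Each result was recomputed under 15 alternatives where they applied and with each of 24 libraries left out. Cryab stayed called in hippocampus, cortex and the average in each, and Hspb8 on average. In olfactory bulb 1 member (Cryab) was called in place of 0 with an added constant of 20, a filter at 100, DESeq2, voom with sample weights, the replicate block or the region fitted alone. DESeq2 also called 1 (Cryab) in place of 0 for the difference among regions. In hippocampus 1 to 2 members were called with a library left out. Without the filter on low values, 3 in place of 5 members were called among control regions, 2 in place of 4 among regions labelled knockout and 1 in place of 2 in control brainstem. With a library left out these were 3 to 7, 2 to 4 and 0 to 3. Without the fold threshold, 3 members were called in control olfactory bulb, 1 in cortex and 4 in brainstem. With control libraries alone 1 was called in hippocampus and 1 in brainstem, and voom called 1 in hippocampus. Of 2992 values of single genes, 60 lost and 35 gained a call and 0 called values changed sign. Another 60 took the other sign with no call in either fit. The calls among all genes ranged widely: 3 to 92 (11) in olfactory bulb, 90 to 638 (318) in hippocampus, 16 to 176 (41) in cortex, 0 to 892 (98) in brainstem, 175 to 1293 (745) on average, 0 to 89 (7) for the difference, and among controls 703 to 1809 (1095), 168 to 365 (221), 253 to 871 (445) and 814 to 2246 (1252) in the same order, with the values of the main analysis in brackets. Brainstem's 892 came without control 2. The cause of these shifts was not tested. The replicate numbers did not meet the rule for pairing, a correlation above 0.1 in every pair: same-numbered libraries of a region correlated at -0.115 to 0.320 (median 0.064), above 0.1 in 5 of 12 pairs. Different-numbered libraries of a region were above 0.1 in 2 of 24 pairs (median -0.036), and among controls of 2 regions 8 of 18 same-numbered and 8 of 36 different-numbered pairs were. Not every library correlated best with its own number. Whether a number marks a shared day or animal was not tested. With the replicate block, counts of members called also went from 5 to 6 among control regions and from 4 to 5 among regions labelled knockout, and the other counts did not change. Low reads limit Hspa1a, Hspa1b, Hspb8 and Hspb1.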
